A study of Mus musculus with 24 samples.

Results

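Clec7a, Itgax, Axl, Lpl, Spp1, Gpnmb, Cd9 and Csf1 code for surface, lipid and growth factor proteins of the microglia that gather around amyloid plaques, and their RNA was followed in mouse forebrain. The genes were chosen by name: every probe set annotated with only 1 of the 8 symbols was taken, and where a gene had several, the brightest by its mean gave the main value. Of the 8 genes, 7 had such probe sets, 13 in all, out of 18193 genes measured; Spp1 was not analysed here. RNA came from TgCRND8 mice at 70, 80 and 150 days of age, whose transgene, APPSwe/Ind, is human amyloid precursor protein bearing the Swedish and the Indiana mutation, and from their non-transgenic littermates (Control) at the same ages. Each of the 6 groups had 4 mice with 1 array each, 24 arrays in all, and the forebrain was separated from the olfactory bulb, the cerebellum and the brainstem. The promoter of the transgene and the sex of the mice are not given in the sources used here.

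Microglia are the resident macrophages of the brain. Where they contact amyloid deposits they are known to lower genes of the resting state and to raise a set of receptors, lysosomal proteins and lipid-handling proteins, in part through the receptor Trem2 and its partner Tyrobp. Among the genes described here, Clec7a (dectin-1) is a lectin receptor for fungal glucans, Itgax is the alpha chain of the CD11c integrin, and Axl is a receptor tyrosine kinase that binds Gas6 on dying cells. Cd9 is a tetraspanin that organises partner proteins in the membrane, and Gpnmb is a transmembrane glycoprotein of lysosome-rich phagocytes. Lpl is the lipase that frees fatty acids from lipoproteins, and Csf1 is a growth factor on which microglia depend through the receptor Csf1r.

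The arrays gave log2 signals, on which a difference of 1 is a doubling, and array medians lay between 4.28 and 4.38. A probe set was called dim when its mean over the 24 arrays lay under 3.22, the median of the arrays' lower quartiles, and low when it lay between that level and 4.31, the median of the arrays' medians. Xist, transcribed from the silenced X of female cells, separated 19 arrays with a high signal from 5 with a low signal, with 0 low arrays in TgCRND8 at day 70, 1 in Control at day 70, 2 each in TgCRND8 and in Control at day 80, and 0 in either group at day 150. The mean correlation of an array with the others was between 0.991 and 0.996. Of 7 measured defining microglia markers, none was dim: Cx3cr1, P2ry12, Tmem119, Csf1r and Aif1 were above the median, and Fcrls and Itgam were low. The arrays measured whole forebrain, in which a change in the number of cells of a type and a change in RNA per cell cannot be told apart.

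At day 150 Cd9 was the member that rose in TgCRND8 forebrain, by 0.46 log2 or 1.37-fold. Clec7a (0.36) and Itgax (0.33) had the next larger differences, on low signals, and did not pass. Lpl (0.13), Gpnmb (0.14), Axl (0.11) and Csf1 (0.02) differed by less and did not pass either. All 7 members were higher, with a median of 0.14 log2, against a median of 0.000435 over all 18193 genes, of which 50.1% were higher. By limma with Benjamini-Hochberg adjustment over all genes, 1 member passed and 6 did not, beside 0.121% of all genes called. By main probe set, 3 members had an unadjusted p under 0.05: Cd9, Itgax and Clec7a. Of all genes 4.38% had such a p in either direction and 1.97% were higher.

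The promoters of these 3 genes are shown because they are the members with the lowest p at day 150. Each covers 250 bases before and 50 after the RefSeq start site on GRCm38.p6, written on the strand of the gene. Capitals mark matches, on either strand, to any of 6 short motifs. Cd9 lies on chromosome 6 and the region is chr6:125494711-125495010, minus strand. Itgax lies on chromosome 7 at chr7:128129300-128129599, plus strand. Clec7a lies on chromosome 6 at chr6:129472736-129473035, minus strand.
Cd9: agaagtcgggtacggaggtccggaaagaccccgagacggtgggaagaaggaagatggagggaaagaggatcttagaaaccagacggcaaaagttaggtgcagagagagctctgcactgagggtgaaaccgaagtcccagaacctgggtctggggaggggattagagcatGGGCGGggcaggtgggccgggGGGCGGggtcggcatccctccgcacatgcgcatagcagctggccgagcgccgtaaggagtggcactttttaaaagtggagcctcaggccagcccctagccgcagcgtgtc
Itgax: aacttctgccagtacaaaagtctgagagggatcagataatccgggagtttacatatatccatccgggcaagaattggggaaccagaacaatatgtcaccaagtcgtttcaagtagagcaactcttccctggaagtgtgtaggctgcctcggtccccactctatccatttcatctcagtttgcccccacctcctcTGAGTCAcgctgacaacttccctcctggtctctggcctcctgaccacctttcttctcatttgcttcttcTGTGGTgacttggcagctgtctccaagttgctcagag
Clec7a: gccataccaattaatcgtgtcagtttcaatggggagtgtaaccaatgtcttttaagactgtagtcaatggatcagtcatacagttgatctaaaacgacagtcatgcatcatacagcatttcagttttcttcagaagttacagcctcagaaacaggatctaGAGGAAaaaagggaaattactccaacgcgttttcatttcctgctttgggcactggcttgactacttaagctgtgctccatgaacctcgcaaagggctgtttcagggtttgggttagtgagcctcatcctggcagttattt

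The motifs searched were GAGGAA, the core of the sites of the myeloid factor PU.1, TGACTCA, the AP-1 site, CACGTG, the E-box of MITF and TFE factors, GGGCGG, the GC box, TGTGGT, the RUNX core, and TATAAA, the TATA box. None of these motifs contains another. The Cd9 promoter held 2 GC boxes and no match to the other 5 motifs, with a GC content of 61.3%. The GC box was present in 35.7% of 32841 RefSeq mouse promoters of the same length. The Itgax promoter held 1 AP-1 site, present in 5.2% of promoters, and 1 RUNX core, present in 16.8%, and the Clec7a promoter held 1 GAGGAA, present in 28.3%. Promoters of 6 of the 7 measured members were in the table, and of the others Axl held 1 GAGGAA and 2 GC boxes, Csf1 held 2 GC boxes, and Gpnmb held 1 AP-1 site and 1 RUNX core. CACGTG, present in 7.15% of promoters, and TATAAA, present in 13.6%, matched in 0 of these 6.

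Cd9 (chromosome 6, 125460266 to 125494760 on GRCm38.p6) was measured by 1 probe set, with a mean of 8.16 over the 24 arrays. At day 150 it read 8.45, 8.20, 8.45 and 8.49 in TgCRND8 mice, against 7.89, 7.89, 7.93 and 8.05 in Control mice. The genotypes did not overlap, which held in this direction for 1.53% of all genes. TgCRND8 mouse 2 lay lowest of its group, within the range of younger mice. The means were 8.40 ± 0.13 in TgCRND8 and 7.94 ± 0.077 in Control (SD, n = 4 each), a difference of 0.46 log2 with a standard error of 0.0738 and a 95% interval of 0.31 to 0.61 (adjusted p = 0.00258 by limma). By p it ranked 10 of 18193 genes. With each of the 8 arrays left out in turn the difference was 0.43 to 0.52.

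At the younger ages the genotypes lay closer together for Cd9. At day 70 the arrays read 8.25, 8.25, 8.28 and 8.13 in TgCRND8, against 8.12, 8.15, 8.20 and 8.25 in Control, a difference of 0.04 (95% interval -0.11 to 0.20). At day 80 they read 8.23, 8.02, 8.12 and 8.25 in TgCRND8, against 8.12, 7.96, 7.97 and 8.07 in Control, a difference of 0.13 (-0.02 to 0.28). The groups overlapped at both ages, and neither difference passed (adjusted p = 0.9996 at day 80 and 0.9997 at day 70 by limma), where 0% of all genes were called. Between day 150 and day 70 Cd9 differed by 0.17 in TgCRND8 (adjusted p = 0.9998 by limma) and by -0.24 in Control (adjusted p = 0.473 by limma). The Control arrays of day 150 were each lower than every Control array of day 70, which was so for 2.53% of all genes, and 0.0220% of all genes were called in that comparison. Set against the average genotype difference of the 2 younger ages, that of day 150 was larger by 0.37 log2 (standard error 0.0904), and this change did not pass (adjusted p = 0.418 by limma, with 0.0110% of all genes called). Averaged over the 3 ages Cd9 was higher by 0.21 (standard error 0.0426; adjusted p = 0.0717 by limma, with 0.0385% of all genes called). Of the 7 members 3 (Cd9, Itgax and Clec7a) had an unadjusted p under 0.05 for this mean, beside 3.16% of all genes and 1.71% higher, and 2 (Cd9 and Clec7a) for the change with age, beside 5.75% of all genes and 2.28% higher. The Cd9 mean passed under 5 of 10 other settings, 1 of which was the same fit called at an adjusted p under 0.10. That looser threshold had to be met by an adjusted p of 0.0717 by limma. Over the 10 settings the adjusted p by limma was between 0.0228 and 0.222. Without TgCRND8 mouse 2 of day 150 the Cd9 mean passed too, with an adjusted p of 0.0169 by limma.

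**Figure D1:**
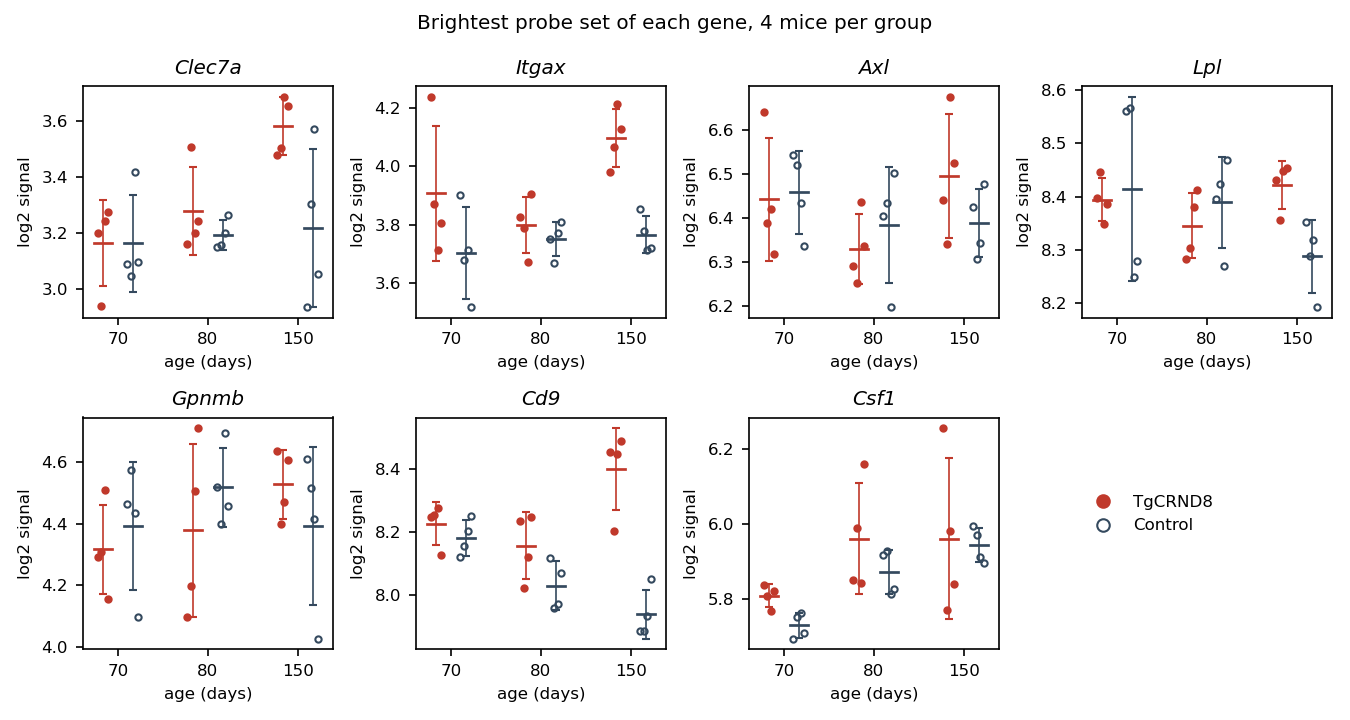
Log2 signal of the brightest probe set of each of the 7 measured genes (vertical axes) by age in days, with TgCRND8 (filled) left of Control (open) at each age; points are single mice, bars the mean and SD of 4 mice. At day 150 the 4 Cd9 values of TgCRND8 mice, 8.20 to 8.49, sit above the 4 Control values, 7.89 to 8.05, while the ranges of Clec7a, Gpnmb, Axl and Csf1 overlap at that age.

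Other cells of the forebrain make Cd9 too, oligodendrocytes among them, and the marker lists were read beside it. The mean level of 11 oligodendrocyte markers was 8.77 to 8.89 in TgCRND8 and 8.76 to 8.86 in Control at day 150, so the groups overlapped. Of these 11 markers 6 were higher and 5 lower in TgCRND8, with a median of 0.013, and 0 passed by limma at an adjusted p under 0.05, where 0.121% of all genes did. At an unadjusted p under 0.05 there were 0 of the 11, where 4.38% of all genes had such a p. At day 70 the same mean was 8.83 to 9.02 in TgCRND8 and 9.03 to 9.18 in Control, without overlap, and 10 of 11 markers were lower in TgCRND8, with 0 past the adjusted threshold by limma, where 0% of all genes passed, and 2, both lower, at an unadjusted p under 0.05, where 3.25% of all genes had such a p. In Control mice Cd9 and these markers both read lower at day 150 than at day 70. There Mog, Mal and Ugt8a, genes of myelin structure and lipid synthesis, fell, with log2 differences of -0.70, -0.49 and -0.54 by limma. In that comparison 0.0220% of all genes were called. With 1 array left out 0 to 3 of all genes passed, so these calls depend on single arrays. All 11 markers read lower, with a median of -0.25. In TgCRND8 mice 8 of 11 markers read lower at day 150 than at day 70 and Cd9 read higher. Of 10 astrocyte markers Gfap and Vim rose at day 150 and 8 did not pass, where 0.121% of all genes were called. Of the 10 markers 4 were higher and 6 lower, with a median of -0.002. The mean of all 10, Gfap and Vim included, was 9.09 to 9.22 in TgCRND8 against 8.89 to 9.04 in Control. The part of each cell type in the Cd9 difference was not tested.

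**Figure D2:**
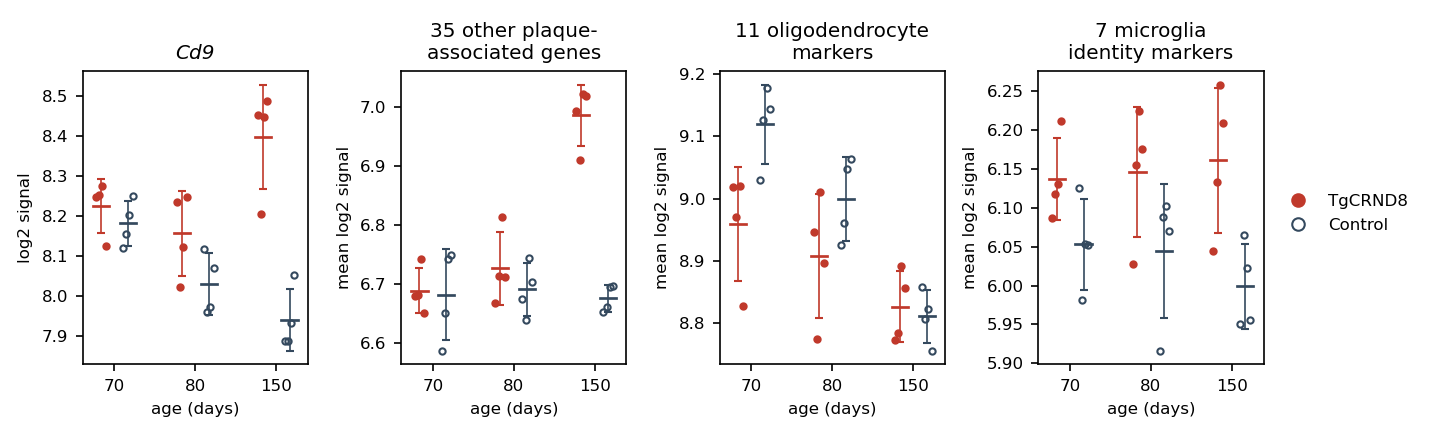
Cd9 signal and the mean log2 signal of 3 gene lists (vertical axes) by age in days, with TgCRND8 (filled) left of Control (open); points are single mice, bars the mean and SD of 4 mice. At day 150 Cd9 and the mean of 35 other plaque-associated genes separate the genotypes, the list with 6.91 to 7.02 in TgCRND8 against 6.65 to 6.70 in Control, while the oligodendrocyte markers overlap.

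Clec7a (chromosome 6, 129461591 to 129472785) had 1 probe set with a mean of 3.26, low and just above the limit for dim. At day 150 it read 3.48, 3.50, 3.69 and 3.65 in TgCRND8, against 2.94, 3.30, 3.57 and 3.05 in Control. Control mouse 3 lay among the TgCRND8 values, and only 2 of the 4 TgCRND8 mice exceeded every Control mouse. The difference was 0.36 with a standard error of 0.113 and a 95% interval of 0.13 to 0.60 (adjusted p = 0.687 by limma, n = 4 each). Without Control mouse 3 it was 0.48 (adjusted p = 0.102 by limma), and without Control mouse 1 it was 0.27. At day 70 both genotypes averaged 3.16, and at day 80 the means were 3.28 in TgCRND8 and 3.19 in Control. Within TgCRND8, day 150 was higher than day 70 by 0.42 (95% interval 0.19 to 0.65; adjusted p = 0.502 by limma), and the 2 ages did not overlap, which held in this direction for 1.22% of all genes. In that comparison 0.0879% of all genes were called.

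Itgax (chromosome 7, 128129526 to 128150657) also had 1 probe set, with a low mean of 3.84. At day 150 it read 3.98, 4.07, 4.21 and 4.13 in TgCRND8, against 3.85, 3.78, 3.71 and 3.72 in Control. The groups did not overlap, which held in this direction for 1.53% of all genes. The difference of 0.33 (standard error 0.0939; 95% interval 0.14 to 0.53) did not pass (adjusted p = 0.546 by limma, n = 4 each). At day 70 Itgax read 4.24, 3.87, 3.71 and 3.81 in TgCRND8, against 3.90, 3.68, 3.71 and 3.52 in Control, and the groups overlapped. That difference was 0.21, and 0.095 without TgCRND8 mouse 1. At day 80 the means were 3.80 in TgCRND8 and 3.75 in Control. Averaged over the 3 ages Itgax was higher by 0.19 (95% interval 0.08 to 0.31; adjusted p = 0.585 by limma).

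Axl (chromosome 7, 25756500 to 25788924) was well measured and differed little. Its main probe set averaged 6.50 ± 0.14 in TgCRND8 and 6.39 ± 0.077 in Control at day 150 (SD, n = 4 each), a difference of 0.11 with a 95% interval of -0.07 to 0.28. The differences were -0.06 at day 80 and -0.02 at day 70, and ranges overlapped at each age. The other Axl probe set, of a class that can bind related transcripts, was dim at 2.56 and differed by -0.06 at day 150.

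Gpnmb (chromosome 6, 49036518 to 49058182) gave the widest intervals of the 7 genes. At day 150 it read 4.63, 4.40, 4.47 and 4.61 in TgCRND8, against 4.61, 4.52, 4.42 and 4.03 in Control, and the groups overlapped. The difference was 0.14 with a 95% interval of -0.13 to 0.40; the estimate for Clec7a, 0.36, lies inside that interval. At days 80 and 70 Gpnmb read lower in TgCRND8 by 0.14 and 0.08, with overlapping ranges. Its other probe set was dim, at 2.69, and differed by -0.10 at day 150.

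Lpl (chromosome 8, 68880555 to 68906932) was well measured and its main probe set differed little. At day 150 its main probe set read 8.43, 8.36, 8.45 and 8.45 in TgCRND8, against 8.35, 8.29, 8.32 and 8.19 in Control. The 2 groups did not overlap, as in 1.53% of all genes, and the difference was 0.13 (standard error 0.0744; 95% interval -0.02 to 0.29; adjusted p = 0.9995 by limma). The other Lpl probe set, with a mean of 5.06, read 5.22, 5.33, 5.09 and 5.44 in TgCRND8, against 4.90, 4.87, 5.08 and 4.81 in Control. It did not overlap between groups either, and the share of all probe sets without overlap was not counted. Its difference was 0.35 (standard error 0.116, adjusted p = 0.9996 by limma over all probe sets). The unadjusted p by limma was 0.00509, and the share of all probe sets with an unadjusted p under 0.05 was not counted. Both probe sets thus read higher in TgCRND8 at day 150, and neither passed. At day 80 the main probe set differed by -0.04 and at day 70 by -0.02.

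Csf1 (chromosome 3, 107741048 to 107760469), the ligand among these genes, had 4 probe sets that did not share a direction. At day 150 the main probe set read 6.26, 5.77, 5.98 and 5.84 in TgCRND8, against 5.99, 5.97, 5.91 and 5.90 in Control. TgCRND8 mouse 1 was the highest and mouse 2 the lowest of these 8 arrays, and the difference was 0.02 (95% interval -0.16 to 0.19). The other 3 probe sets, in order of falling signal, differed by -0.12, 0.11 and -0.12, the last on a low signal. At day 70 the main probe set read 5.84, 5.81, 5.77 and 5.82 in TgCRND8, against 5.69, 5.75, 5.76 and 5.71 in Control. These groups did not overlap, as in 1.10% of all genes, but the difference was 0.08 (adjusted p = 0.9997 by limma) and the other 3 probe sets, in the same order, differed by 0.06, -0.18 and 0.04. In Control mice the main probe set was higher at day 150 than at day 70 by 0.21 (95% interval 0.04 to 0.39; adjusted p = 0.55 by limma), with no overlap, as in 2.04% of all genes.

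**Figure D3:**
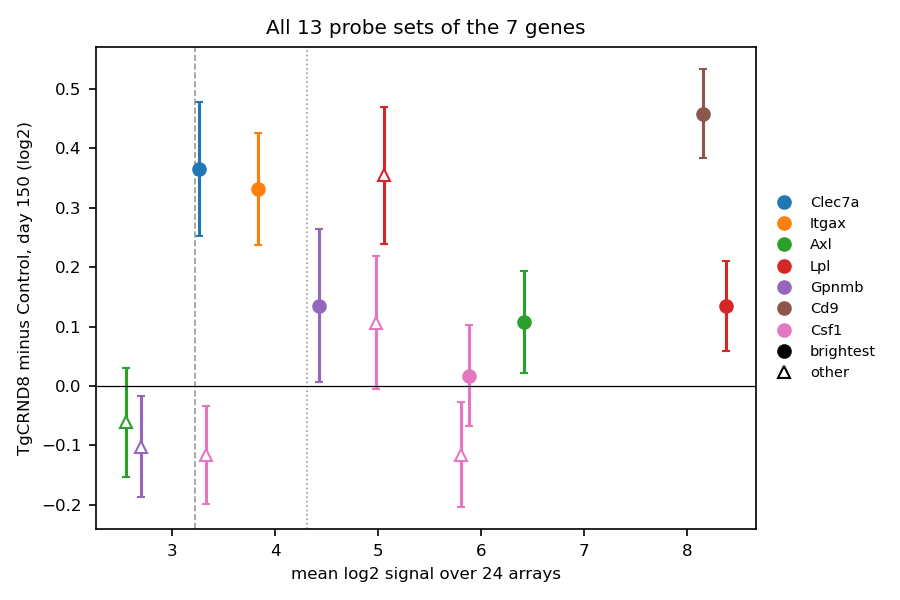
Day 150 difference of TgCRND8 minus Control in log2 (vertical axis) against the mean log2 signal over 24 arrays (horizontal axis) for all 13 probe sets, with circles for the brightest probe set of a gene, triangles for the others and bars for standard errors. The dashed line marks the limit for dim (3.22) and the dotted line the median level (4.31); Cd9, at 0.46, stands on a bright signal, Clec7a and Itgax on low ones, and the other Lpl probe set lies at 0.35.

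Ordered by mean level, TgCRND8 of day 150 was the highest of the 6 groups for each of the 7 genes, but only for some did it stand apart from the next group by more than the spread. For Cd9 the order was TgCRND8 of day 150 (8.40), TgCRND8 of day 70 (8.23), Control of day 70 (8.18), TgCRND8 of day 80 (8.16), Control of day 80 (8.03) and Control of day 150 (7.94). The gap between the highest and the next was 0.17 against a pooled SD of 0.10, and all neighbours in this order overlapped. For Clec7a the highest group was 0.30 above the next, TgCRND8 of day 80, against a pooled SD of 0.13, and the other 5 groups lay between 3.16 and 3.28. For Itgax the highest was 0.19 above TgCRND8 of day 70, against a pooled SD of 0.18. For Axl, Lpl, Gpnmb and Csf1 the highest group was no more than 0.04 above the next, within the spread. Of all neighbours in the 7 orders, the pair that did not overlap was TgCRND8 above Control at day 70 for Csf1.

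**Figure D4:**
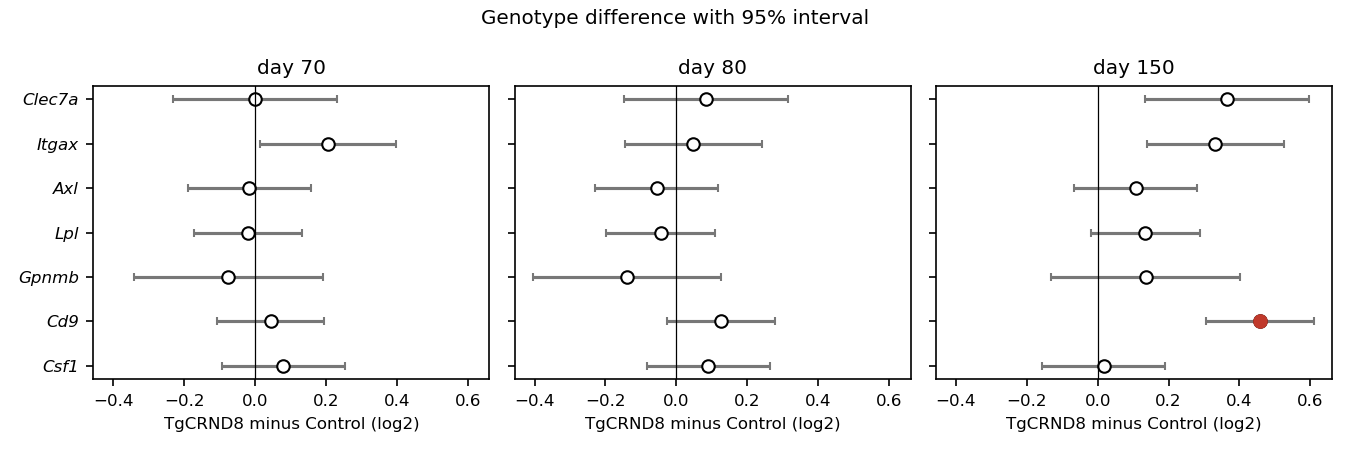
Genotype difference, TgCRND8 minus Control in log2 (horizontal axes), at days 70, 80 and 150 for the 7 genes; points are estimates over 4 mice per group, bars 95% intervals, and the filled point passed at an adjusted p under 0.05. Cd9 at day 150 passed at 0.46, and the intervals of Clec7a and Itgax at that age lie above 0 without passing the adjustment.

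Before day 150 no member passed. At day 80, 4 of 7 were higher with a median of 0.05, and at day 70, 4 of 7 were higher with a median of 0.00. By limma with Benjamini-Hochberg adjustment 0 members passed at each age, and at an unadjusted p under 0.05 there were 0 members at day 80, where 3.77% of all genes had such a p, and 1 (Itgax, higher) at day 70, where 3.25% did and 1.47% were higher. Within TgCRND8 mice all 7 members read higher at day 150 than at day 70, by a median of 0.17, and than at day 80, by a median of 0.17, and 0 passed by limma. At an unadjusted p under 0.05 these were 2 members (Clec7a and Cd9) against day 70, where 2.64% of all genes had such a p and 1.34% were higher, and 3 (Clec7a, Itgax and Cd9) against day 80, where 6.76% had such a p and 2.45% were higher. Against day 80, 0.0220% of all genes were called, and Itgax did not overlap, as in 1.10% of all genes. In Control mice 4 of 7 were higher at day 150 than at day 70, with a median of 0.00, and 0 passed by limma; 2 members (Cd9, lower, and Csf1, higher) had an unadjusted p under 0.05, beside 7.99% of all genes, 3.58% being higher. Against day 80 in Control mice 0 members had an unadjusted p under 0.05, beside 3.41% of all genes. These comparisons share arrays with one another and with the day 150 genotype difference.

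Other genes of plaque-associated microglia moved at day 150. Of 40 such genes on the list 35 were measured, and 8 rose: Cst7, Tyrobp, Cd52, Cd68, Trem2, Ctss, Ctsz and Ctsd, while 0 fell and 27 did not pass. Of all genes 0.121% were called. At an unadjusted p under 0.05 there were 16 of the 35, all higher, beside 4.38% of all genes and 1.97% higher. Cst7, the cystatin F gene, had the largest difference of the list at 1.59 log2, and Ctsd, a lysosomal protease gene, the smallest of those that rose at 0.36. The size of the Cd9 difference, 0.46, lay between those of Ctsz (0.48) and Ctsd. Clec7a at 0.36 had a larger standard error than Ctsd (0.113 against 0.0669). The median of the 35 was 0.16, with 32 higher, beside 0.14 for the 7 members. The list was written with earlier results of these data known, so its direction is no independent evidence.

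**Figure D5:**
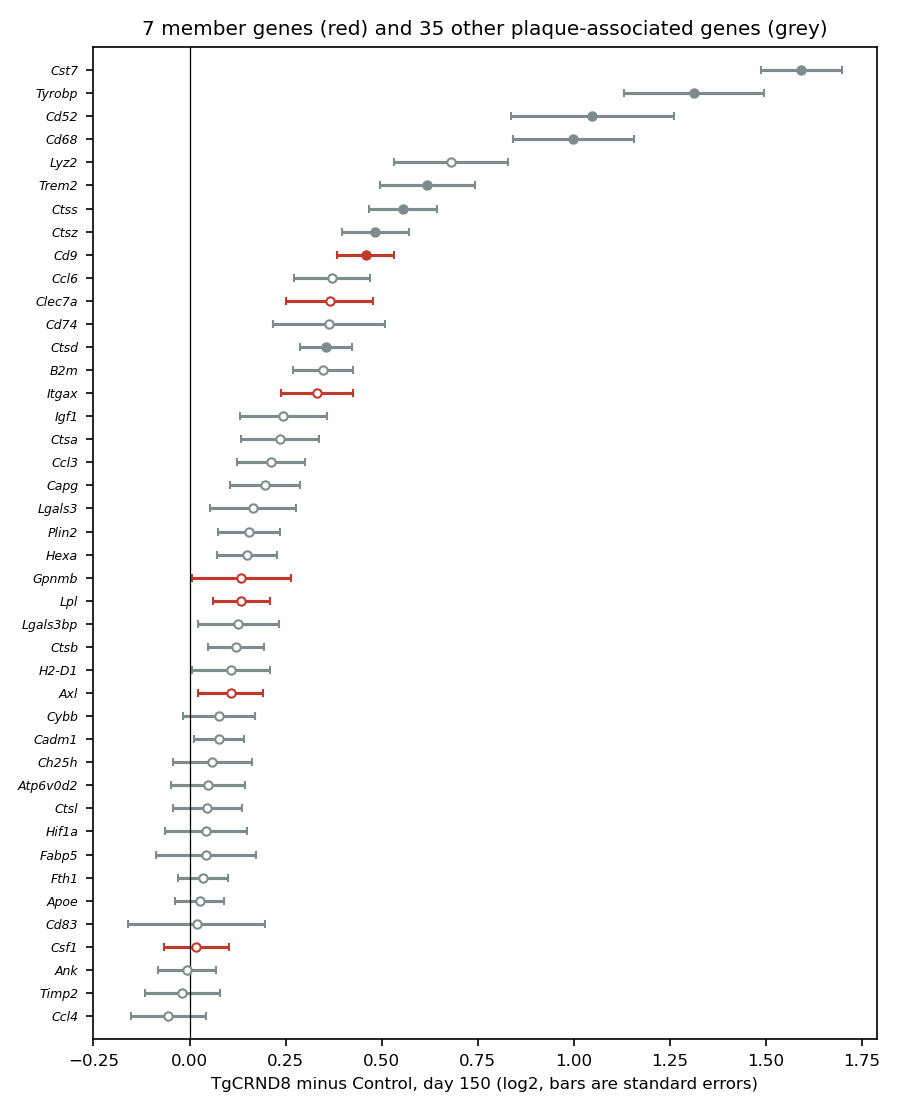
Day 150 difference of TgCRND8 minus Control in log2 (horizontal axis) for the 7 genes described here (red) and 35 other genes of plaque-associated microglia (grey), ordered by size; bars are standard errors over 4 mice per group and filled points passed at an adjusted p under 0.05. Cd9 (0.46) lies below Cst7 (1.59), Tyrobp (1.31) and Cd68 (0.999), and Csf1 (0.02) lies near the low end.

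Most genes of resting microglia also read higher at day 150, though few by much. Of 25 measured, Trem2, also on the list above, rose and 24 did not pass, where 0.121% of all genes were called. At an unadjusted p under 0.05 there were 8, of which 7 were higher, where 4.38% of all genes had such a p and 1.97% were higher. Of the 25 genes 20 were higher, with a median of 0.11. The mean of the 25 was 6.38 to 6.45 in TgCRND8 against 6.24 to 6.32 in Control, without overlap. The mean of the 7 defining microglia markers was 6.04 to 6.26 in TgCRND8 and 5.95 to 6.07 in Control at day 150, 6.03 to 6.23 in TgCRND8 and 5.92 to 6.10 in Control at day 80, and 6.09 to 6.21 in TgCRND8 and 5.98 to 6.13 in Control at day 70. The ranges of this shorter list overlapped at each age, and 6 of 7 markers were higher at each. Of the 7, 0 passed by limma. At an unadjusted p under 0.05 there were 2 at day 150, both higher, where 4.38% of all genes had such a p. At day 80 there was 1, higher, beside 3.77%, and at day 70 there were 0, beside 3.25%. For the mean of the 3 ages all 7 were higher, and 3 had such a p, beside 3.16%. The part of both lists in the member differences was not tested.

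No partner of the surface members passed the adjusted threshold. Of 34 measured ligands, receptors, sister subunits and adaptors 21 were higher at day 150, with a median of 0.05, and 0 passed by limma, where 0.121% of all genes did. At an unadjusted p under 0.05 there were 7 of the 34, all higher, where 4.38% of all genes had such a p and 1.97% were higher. Those listed first were Syk (-0.19), the kinase that carries the signal of Clec7a, and Bcl10 (0.14), an adaptor below it. Of 29 measured lipid-handling genes 19 were higher, with a median of 0.02, and 0 passed by limma. At an unadjusted p under 0.05 there were 2, of which 1 was higher, beside 4.38% of all genes and 1.97% higher. The mean of the 29 genes was 6.44 to 6.47 in TgCRND8 against 6.40 to 6.42 in Control. Gpihbp1, which carries Lpl to the surface of capillaries, differed by -0.33 and Lmf1, which helps Lpl to fold, by 0.17.

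Markers of other myeloid cells, which can also carry Itgax, did not separate the genotypes. Of 11 measured markers of border macrophages and dendritic cells 5 were higher at day 150, 0 passed by limma and 0 had an unadjusted p under 0.05. Of all genes 0.121% passed at that age and 4.38% had such a p. Their mean was 3.85 to 3.95 in TgCRND8 and 3.87 to 3.96 in Control. Of the 11 markers 4 (Cd163, Lyve1, Ccr7 and Xcr1) were dim and 4 more were low. The part of these cells in the Itgax difference was not tested. Of 10 endothelial and pericyte markers, 10 meningeal fibroblast markers, 10 neuron markers and 6 blood markers 0 passed at day 150 by limma, and 1, a blood marker, had an unadjusted p under 0.05. The shares of all genes were again 0.121% and 4.38%. The medians of these lists were 0.04, -0.02, 0.02 and -0.02 in that order.

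The genes whose levels over the 24 arrays were most like those of Cd9 were Ctsc, a lysosomal protease gene, with r = 0.83, Vim, an intermediate filament gene of astrocytes, with r = 0.82, and Cd68, a phagocyte glycoprotein gene, with r = 0.78, among 11373 genes above the median level. Without the TgCRND8 arrays of day 150 these were 0.70, 0.63 and 0.61 over 20 arrays. The genes most like Clec7a were Ly86 (0.77), Tyrobp (0.76) and C1qa (0.74), with 0.57, 0.48 and 0.44 over the 20 arrays. Itgax was nearest to Ctse (0.72), Rpp40 (0.66) and Cx3cr1 (0.61). Axl was nearest to Hps3 (0.70), Lpl to Slc38a10 (0.65), Gpnmb to Speer4f1 (0.68) and Csf1 to Tbc1d31 (0.75). These are Pearson correlations picked as the highest of many, arrays of a group share a genotype and an age, and no test was made of them.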

How the data were processed

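RNA of 24 mouse forebrains was measured on Affymetrix arrays, 4 mice per genotype and age. Per the labels' protocols, RNA was isolated with TRIzol, cleaned on columns and turned into biotin-labelled cRNA by in vitro transcription. The table the authors deposited holds log2 signals, taken as they are; the summary and normalization methods are not given in the sources used here, and a scaling common to all arrays would not show in them. No column was left unmapped to a sample. The replicates are separate mice per the labels, which do not say that a number marks a shared litter or batch. Same-numbered mice of both genotypes deviated together, at a correlation over 0.1, in 4 of 4 day 150 pairs and 5 of 8 younger pairs. The numbers thus met the criterion for pairing (every pair over 0.1) at day 150 and not over all 12 pairs. In 8 of the 12 pairs the TgCRND8 mouse deviated most like the Control mouse of its own number, each day 150 pair among them. The main fit has no block, and a fit with the replicate block is given below.

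Probe sets were named from GEO's platform annotation, and 34945 of 45101 had 1 symbol and were no array control. All 24 arrays entered 1 limma fit with 6 group means (18 residual and 7.47 prior degrees of freedom) over 18193 genes, with calls made at a Benjamini-Hochberg adjusted p under 0.05. A second fit covered all probe sets with 1 symbol. The median standard error of a day 150 difference was 0.0977 log2; with 4 arrays per group, their number limits the precision. The fit was tested on simulated arrays. Named genes were the members in each comparison, list genes that passed or else the 2 measured ones listed first, and the 3 genes most correlated with a member; markers named for their level were chosen after it was seen. The members and lists were chosen with earlier results of these data known. Promoters and positions came from RefSeq (GRCm38.p6). Alternatives were other normalizations, filters, probe set rules, variance settings, array weights, a replicate block, Xist as covariate and leaving out each array. The fits ran in limma 3.58.1 under R 4.3.3; promoters and figures used Python 3.11.15 with matplotlib 3.10.9.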

Additional observations from a re-analysis of the deposited data

Results flagged for a closer look

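Within groups of 4 arrays, 2 values lay far from the other 3 by Dixon's gap test, among 42 combinations of gene and group examined; chance flags about 1 in 20. For Cd9, TgCRND8 mouse 2 of day 150 read 8.20, below the other 3 at 8.45 to 8.49, and the genotype difference without it was 0.52. The same mouse was also lowest of its group for the mean of the 35 other plaque-associated genes, at 6.91. For Clec7a, Control mouse 3 of day 70 read 3.42, above the other 3 at 3.05 to 3.09.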

How the results depend on the processing

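The rise of Cd9 at day 150 passed in all 11 other settings and all 8 fits with 1 array left out. The differences were 0.43 to 0.52 and the adjusted p by limma 0.000764 to 0.046, the highest when only the 8 arrays compared were fitted. In each of these settings and fits 1 member passed at day 150. Among the 11 settings was the same fit called at an adjusted p under 0.10, which the main result had to pass. The other probe set rules left the Cd9 values as they were, because Cd9 has 1 probe set. The mean over the 3 ages had 0 members past the threshold; 1 member, Cd9, passed there with quantile normalization, without the dimmest 40% of genes, with trend and robust settings, with the replicate block and at an adjusted p under 0.10, and 0 to 1 passed with 1 array left out. For the other 7 comparisons 0 passed in every setting run, and 0 of the other probe sets of the members passed in the fit over all probe sets. Clec7a, Itgax and Gpnmb were not tested without the dimmest 40% of genes, which left 4 members. With the replicate block the adjusted p by limma for the mean of Cd9 over ages was 0.0442, 1 member passed at day 150 as without it, and the block changed no other call of a member. Of all genes, 22 passed at day 150, 35 with array weights and 12 without Control mouse 2. For the mean over ages 7 passed, and 4 to 11 in other settings. Within TgCRND8, 16 passed against day 70 (8 to 27 otherwise) and 4 against day 80 (1 to 14), and within Control 4 passed against day 70 (0 to 8). The genotype change with age had 2 (1 to 4), and day 80 had 0 (2 without TgCRND8 mouse 1). Fits with only the arrays compared exist for comparisons of 2 groups alone, and no scanner data were used here to try another background correction.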

Other observations

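The low Clec7a signal was also set beside the 3 genes most like it among mice of the same group. After the group means were taken off, the Pearson correlation of Clec7a over the 24 arrays was 0.60 with Ly86, 0.53 with Tyrobp and 0.49 with C1qa. These genes were picked for their likeness to Clec7a over the same arrays, so the values are no independent evidence. Control mouse 3 of day 150, at 3.57 for Clec7a, stood among the TgCRND8 values for that gene. At 7.93 for Cd9 and 3.71 for Itgax it lay below every TgCRND8 mouse of that age, as did every other Control mouse. Gfap and Vim, filament genes of astrocytes, were the 2 of 10 astrocyte markers that rose at day 150 by limma, by 1.42 and 0.74 log2, beside a median of -0.002 for the list.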
